A study of Mus musculus with 18 samples.

Results

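The 10 genes described here are members of the HOXB and HOXC clusters, taken by gene symbol from count tables of 41079 genes each: Hoxb2, Hoxb3, Hoxb4, Hoxb5, Hoxb6, Hoxb7 and Hoxb8 on chromosome 11, and Hoxc4, Hoxc5 and Hoxc6 on chromosome 15. Their RNA was counted by sequencing in mouse bone marrow cells selected for cKit, the receptor that marks blood stem and progenitor cells. The cells carried AE9a, a leukaemia-causing short isoform of AML1-ETO (the RUNX1-RUNX1T1 fusion protein), or were wild type (WT), and cells of each genotype had received C16, RE or the solvent DMSO. The 6 groups were thus AE9a C16, AE9a RE, AE9a DMSO, WT C16, WT RE and WT DMSO, with 3 libraries each. The question behind the series was what inhibitors of WDR5 and MLL1 do to such cells. Which of C16 and RE targets which protein, their doses and times, the way AE9a was introduced, the age of the mice and whether replicates came from separate animals are not stated in the labels. The p-values therefore measure the spread between these samples, which may be technical.

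HOX genes encode homeodomain transcription factors that sit side by side in several chromosomal clusters, and their order along a cluster follows the order of their expression along the body axis of the embryo. In blood, members of the HOXA and HOXB clusters are active in stem and progenitor cells and are shut down as cells mature. The histone methyltransferase MLL1, in a complex that holds WDR5, keeps HOX genes active, Polycomb complexes keep them silent, and PBX and MEIS proteins bind DNA together with HOX proteins.

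All 10 members lie on the plus strand. On GRCm39 the HOXB members run from Hoxb8 (chromosome 11, 96170227 to 96176151) through Hoxb7, Hoxb6, Hoxb5, Hoxb3 (96197927 to 96238756) and Hoxb4 (96209093 to 96212464), whose exons lie inside the span of Hoxb3, to Hoxb2 (96242458 to 96244846). The HOXC members are Hoxc6 (chromosome 15, 102906658 to 102920314), Hoxc5 (102922440 to 102925861) and Hoxc4 (102926531 to 102945281). RefSeq promoter windows, from 250 bases before to 50 after a start site on GRCm38.p6, were at hand for 3 members. Those of Hoxb4 (chr11:96318017-96318316, plus strand) and Hoxc4 (chr15:103034145-103034444, plus strand) are shown because these genes hold most of the fragments of their clusters and gave the main results. Capitals mark matches to any of 6 short motifs.
Hoxb4: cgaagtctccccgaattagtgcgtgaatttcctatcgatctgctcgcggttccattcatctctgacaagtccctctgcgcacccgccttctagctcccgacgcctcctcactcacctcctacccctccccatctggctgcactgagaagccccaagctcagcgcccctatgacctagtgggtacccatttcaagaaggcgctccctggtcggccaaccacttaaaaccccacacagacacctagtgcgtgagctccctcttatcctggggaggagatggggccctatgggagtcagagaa
Hoxc4: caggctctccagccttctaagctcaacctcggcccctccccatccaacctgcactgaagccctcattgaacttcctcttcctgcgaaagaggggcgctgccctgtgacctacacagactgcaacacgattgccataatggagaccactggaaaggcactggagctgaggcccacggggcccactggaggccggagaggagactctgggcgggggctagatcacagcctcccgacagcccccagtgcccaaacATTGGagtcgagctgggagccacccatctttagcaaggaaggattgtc
The motifs, read on both strands, were TGTGGT for RUNX, CACGTG for an E-box, CCAAT for NF-Y, AGATAA for GATA factors, TATAAA for a TATA box and TTTATG for CDX factors. The Hoxc4 window held 1 match, a CCAAT on the minus strand that starts 2 bases after the start site, and the Hoxb4 window held 0. CCAAT was present in 37.41% of all 32851 promoter windows of this length, TGTGGT in 16.76%, TATAAA in 13.62%, TTTATG in 11.85%, AGATAA in 11.18% and CACGTG in 7.15%. The start site of the Hoxc4 window lies 16298 bases into the annotated gene, so an upstream start is outside it. These matches describe the letters of the windows and say nothing about binding in these cells.

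Some libraries stood apart from their groups. WT replicate 2 lay 0.863 to 1.16 from replicates 1 and 3 of its own treatment (root mean square log2 difference over genes), against 0.357 to 0.403 between WT replicates 1 and 3. AE9a C16 replicate 3 lay 0.657 and 0.686 from AE9a C16 replicates 1 and 2, which were 0.349 apart. The distance of WT C16 replicate 2 from each AE9a C16 library was 0.704 to 0.744, less than its 1.11 and 1.16 from the rest of its own group. Its nearest library of all was WT DMSO replicate 2, at 0.654. The 3 WT libraries numbered 2 also had summed levels of 8 neutrophil markers of 10783 to 17445 CPM, against 2543 to 3651 CPM in the other 6, and of 8 megakaryocyte markers of 314.9 to 556.0 CPM, against 2595 to 10761 CPM. Kit was detected in every library, at 221.3 to 1616 CPM in AE9a libraries and 59.6 to 213.2 CPM in WT libraries. CPM is the count per 1000000 fragments of the scaled library. Runx1t1, the fusion partner gene, reached 33.4 to 46.2 CPM in AE9a RE and DMSO libraries and at most 0.388 CPM in WT libraries, but 2.43, 4.22 and 0.211 CPM in AE9a C16 libraries. Each genotype came as its own table, so genotype and any batch that follows it cannot be told apart. In bulk RNA, fewer cells of a type and less RNA per cell cannot be told apart either.

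Expression rested on few members. Hoxb4 held 78.3% of the 1054 HOXB member fragments in AE9a libraries and 72.8% of 1294 in WT libraries, and Hoxb3 held 19.1% and 23.0%. On HOXC, Hoxc4 held 91.1% of 1273 member fragments in AE9a libraries, whereas WT libraries had 8 HOXC member fragments in all. Per kilobase of exon, Hoxb4 and Hoxc4 stood level in AE9a DMSO cells, at 1.67 ± 0.14 and 1.68 ± 0.53 FPKM (SD, n = 3 libraries). In the AE9a C16 group Hoxb4 had 2.33 ± 0.58 FPKM and Hoxc4 0.0867 ± 0.0760 FPKM, and in the AE9a RE group Hoxb4 had 1.04 ± 0.13 FPKM and Hoxc4 2.02 ± 0.29 FPKM. In WT DMSO cells Hoxb4 led with 2.56 ± 0.59 FPKM and Hoxb3 followed with 0.259 ± 0.088 FPKM.

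**Figure D1:**
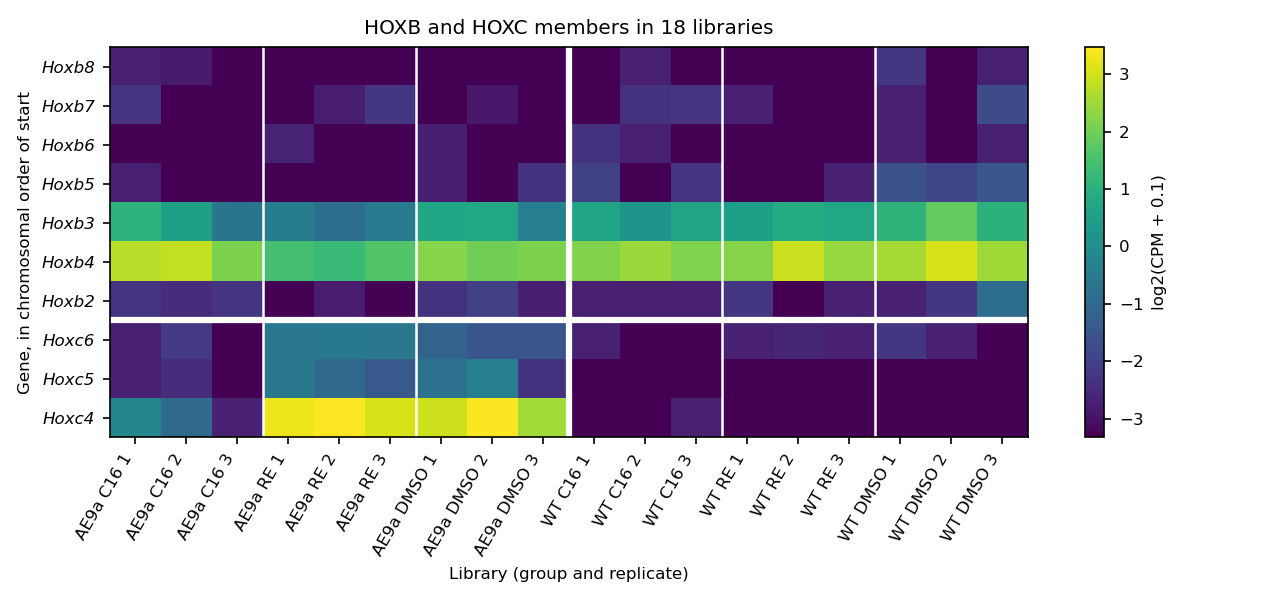
Level of each member in each library, as log2(CPM + 0.1), with genes in chromosomal order and libraries by group. Hoxb4 and Hoxb3 are seen in all 18 libraries, the 3 HOXC genes mainly in AE9a RE and AE9a DMSO libraries, and the other 5 HOXB members are at or near 0.

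Hoxb2, Hoxb5, Hoxb6, Hoxb7 and Hoxb8 were hardly detected. Over all 18 libraries they had 32, 22, 7, 16 and 6 fragments, and no library exceeded 0.454 CPM, against a floor of 3 fragments that equals 0.11 to 0.187 CPM. Of these, Hoxb5 marks long-term stem cells in mice, and Hoxb8 blocks myeloid maturation when forced in mouse progenitors. Hoxb5 had 0.0518, 0 and 0 CPM in AE9a C16 libraries, 0 in AE9a RE libraries and 0.0495, 0 and 0.0993 CPM in AE9a DMSO libraries. In WT libraries it had 0.151, 0 and 0.105 CPM under C16, 0, 0 and 0.0537 CPM under RE and 0.222, 0.165 and 0.252 CPM under DMSO, so that 12 of its 22 fragments lay in the WT DMSO group. With DMSO, 3 fragments in AE9a libraries against 12 in WT libraries made Hoxb5 4.85-fold lower in AE9a cells (95% interval 1.31 to 26.8, counting error only). Hoxb2 reached 0.454 CPM in WT DMSO replicate 3 alone, with 9 of its 32 fragments. None of the 5 was kept by the filter on low counts in any fit, so no test across libraries was made and only such counting ratios are given. Hoxb2 shares 335 of its exon bases with the antisense gene Hoxb3os, and counting ignored strand, so fragments in that stretch could not be assigned by strand.

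Hoxc4, which in human blood progenitors has been linked to their expansion, was present in AE9a cells and all but absent from WT cells. It had 0.777, 0.410 and 0.0528 CPM in AE9a C16 libraries, 9.67, 11.01 and 8.24 CPM in AE9a RE libraries and 7.63, 10.7 and 5.66 CPM in AE9a DMSO libraries. The 9 WT libraries held 1 Hoxc4 fragment, in WT C16 replicate 3. AE9a and WT libraries did not overlap under any treatment, although AE9a C16 replicate 3 and WT C16 replicate 3 had 1 fragment each. Within AE9a the C16 libraries lay below all others.

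Under DMSO, AE9a cells had at least 155-fold more Hoxc4 than WT cells, taking 3 fragments over the WT group as the floor (edgeR adjusted p = 5.56e-05). Under RE it was at least 170-fold higher (adjusted p = 3.06e-05). Under C16, with 26 fragments in AE9a and 1 in WT libraries, the ratio was 24.4, with a 95% interval of 4.01 to 1001 that covers counting error only (adjusted p = 0.0166). The C16 call was lost without AE9a C16 replicate 1 (adjusted p = 0.0503), WT C16 replicate 1 (0.0738) or WT C16 replicate 3 (0.0519). The fitted log2 difference, 4.17, was 3.43 and 6.07 without AE9a C16 replicate 1 and WT C16 replicate 3.

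Hoxc5 and Hoxc6, both patterning genes of the trunk, were likewise found mainly in AE9a RE and AE9a DMSO libraries, at lower levels. Hoxc5 had 0.0518, 0.0819 and 0 CPM in AE9a C16 libraries, 0.562, 0.400 and 0.273 CPM in AE9a RE libraries and 0.495, 0.653 and 0.0993 CPM in AE9a DMSO libraries, and 0 fragments in every WT library. Its groups of AE9a RE and AE9a DMSO libraries overlapped, and AE9a DMSO replicate 3 lay close to the C16 libraries. Against the floor, Hoxc5 was at least 8.25-fold higher in AE9a cells under DMSO and at least 7.14-fold higher under RE, but it did not pass the filter in the fit over both genotypes and was not tested there.

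Hoxc6 had 0.0518, 0.123 and 0 CPM in AE9a C16 libraries, 0.562, 0.577 and 0.546 CPM in AE9a RE libraries and 0.347, 0.254 and 0.248 CPM in AE9a DMSO libraries, while no WT library exceeded 0.111 CPM. The AE9a RE and AE9a DMSO libraries did not overlap with those of WT. Relative to WT cells, Hoxc6 was higher in AE9a cells under RE (log2 3.16 ± 0.68, adjusted p = 0.00247) and under DMSO (log2 2.26 ± 0.72, adjusted p = 0.0311). The DMSO call rests on 19 fragments in AE9a and 3 in WT libraries, a ratio of 5.23 with a 95% interval of 1.54 to 27.6. Without WT DMSO replicate 1 the difference was 3.14 (adjusted p = 0.0277). The call was lost when any of 5 libraries was left out, namely AE9a DMSO 1 (adjusted p = 0.0869), 2 (0.0655) or 3 (0.0574) and WT DMSO 2 (0.0691) or 3 (0.112). It was also lost with DESeq2 (0.0573) and without the filter on low counts (0.0554). Under C16 the difference was 1.57 ± 1.05 (adjusted p = 0.282).

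Counted over the 4 members tested in the fit of both genotypes, AE9a cells had 2 higher and 0 lower under DMSO, 1 and 0 under C16, and 2 and 2 under RE. Under DMSO, 12.9% of all 15809 tested genes were called higher and 13.8% lower, 26.7% in all. Under C16 the shares were 16.1%, 18.9% and 35%, and under RE 17.8%, 18% and 35.8%. Libraries of the genotypes did not overlap for 2 higher and 2 lower members under DMSO (22.9% and 24.7% of all tested genes, 47.7% in all), 1 higher and 0 lower under C16 (20.3% and 19.2%, 39.5% in all) and 2 higher and 2 lower under RE (25.8% and 25.2%, 51% in all). Hoxc4 and Hoxc6 passed the filter through the AE9a groups in which they were high, so the count of those tested is no support for their direction.

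**Figure D2:**
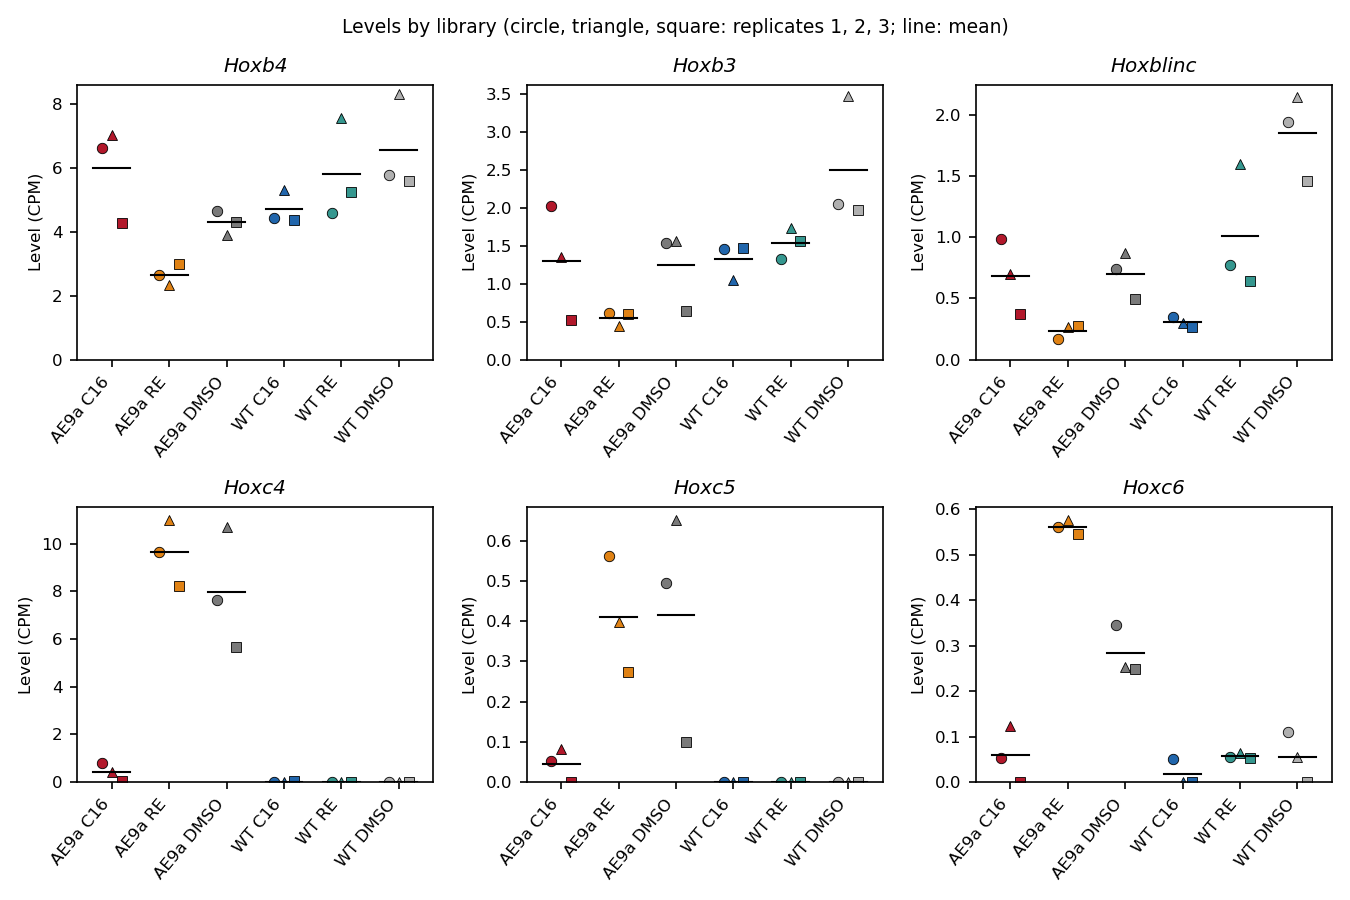
Level in CPM of 5 members and of the noncoding gene Hoxblinc in each library, by group, with linear axes that start at 0. Hoxc4, Hoxc5 and Hoxc6 stand high in AE9a RE and AE9a DMSO libraries and near 0 elsewhere, and Hoxb4 is lowest in the AE9a RE group, at 2.35 to 3.001 CPM.

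C16 lowered the 3 HOXC members in AE9a cells. Hoxc4 changed by log2 −4.31 ± 0.45 against DMSO (adjusted p = 2.96e-05), the 149th lowest of 14704 tested genes. Hoxc5 changed by −3.08 ± 0.84 (adjusted p = 0.0095), with 3 fragments under C16 and 30 under DMSO, a ratio of 9.23 with a 95% interval of 2.87 to 47.3. Hoxc6 changed by −2.09 ± 0.57 (adjusted p = 0.00925). For each of the 3 genes every C16 library lay below every DMSO library. For Hoxc5, however, C16 replicate 2 and DMSO replicate 3 had 2 fragments each (0.0819 and 0.0993 CPM), so library size alone separates them. All 3 calls held with any 1 library left out, with changes of −5.04 (without AE9a C16 replicate 1) to −3.85 for Hoxc4, −3.82 (without AE9a C16 replicate 2) to −2.56 for Hoxc5 and −3.20 (without AE9a C16 replicate 2) to −1.61 for Hoxc6.

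Much of the transcriptome differed as well. Of the 5 tested members 3 were lower and 0 higher under C16 in AE9a cells, where 33.2% of all tested genes were lower and 33.1% higher, 66.3% in all. Libraries did not overlap for the same 3 members, for Hoxc5 only by library size. The same held for 32.8% of all tested genes as lower and 38.8% as higher, 71.6% in all. The 3 HOXC members passed the filter through the RE and DMSO groups, so their count is not support for the direction. The median log2 change of the 5 was −2.09, and that of all tested genes 0.00. That median is the value of Hoxc6, one of these 3 members, so it is no support for the direction either. Runx1t1 fell by 4.07 ± 0.46 on the log2 scale (adjusted p = 4.44e-05). Of 6 progenitor markers 2 were lower, Kit (−1.92 ± 0.16) and Gata2 (−2.49 ± 0.33), and 3 were higher, Sox4 (1.02 ± 0.10), Cd34 (0.84 ± 0.09) and Flt3 (0.84 ± 0.15), while Myb differed by 0.04 ± 0.06 (adjusted p = 0.519). Of 8 erythroid markers 8 were lower and 0 higher, with summed levels of 1.58 to 31.6 CPM in AE9a C16 libraries and 531.1 to 696.5 CPM in AE9a DMSO libraries. Of 8 mast cell and basophil markers 6 were lower and 0 higher, with sums of 258.5 to 1448 CPM under C16 and 5736 to 7227 CPM under DMSO. Of 8 megakaryocyte markers 6 were lower and 0 higher, with sums of 60.4 to 154.3 CPM under C16 and 258.5 to 376.9 CPM under DMSO. AE9a C16 replicate 3 was lowest in Hoxc4, in Runx1t1 and in the erythroid, mast cell and megakaryocyte sums. Of 8 neutrophil markers 4 were higher and 4 lower, with sums of 9569 to 11796 CPM under C16 and 4311 to 4700 CPM under DMSO. The higher ones were Mpo, Elane, Prtn3 and Ctsg, enzymes of early granules, and the lower ones Ltf, Camp, Ngp and S100a8, which are made later in maturation. Of 6 stem cell markers 2 were higher and 1 lower, with sums of 29.1 to 34.5 CPM under C16 and 15.99 to 22.9 CPM under DMSO. Of 6 monocyte markers 0 were higher and 1 lower, and their sums overlapped. The part of these shifts in the HOXC result was not tested.

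**Figure D3:**
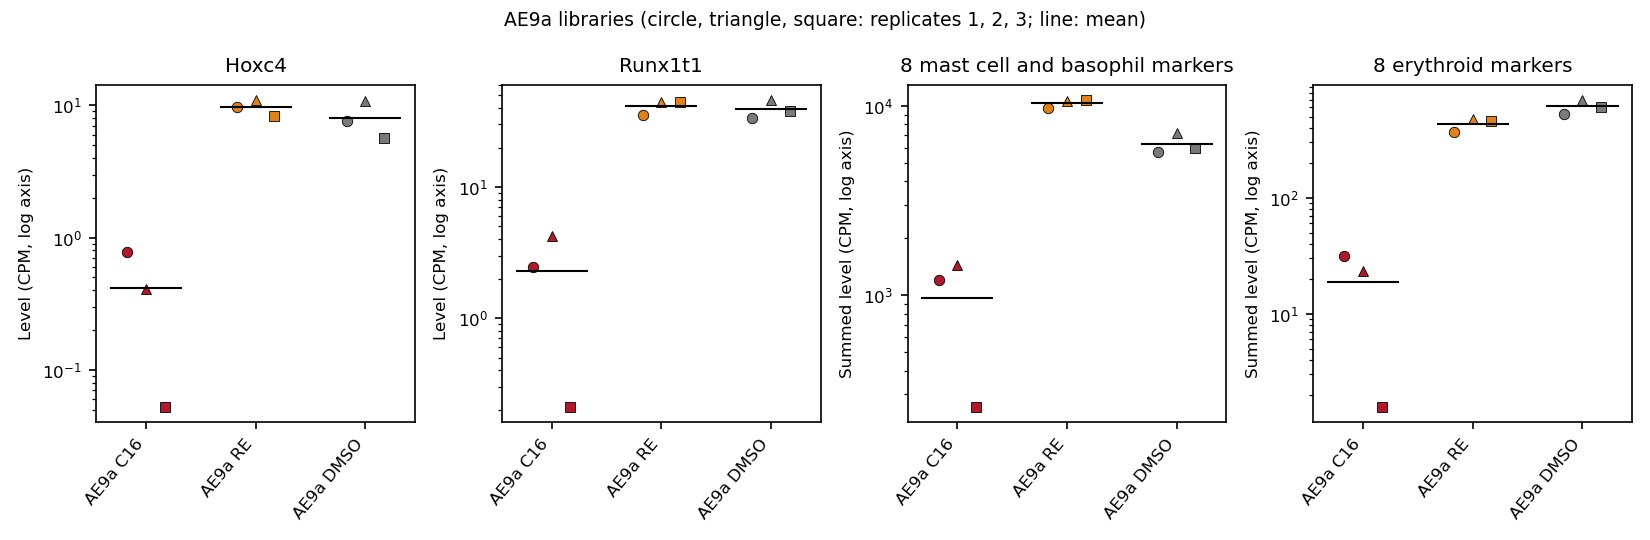
Hoxc4, Runx1t1 and the summed levels of 8 mast cell and basophil markers and 8 erythroid markers in the 9 AE9a libraries, in CPM on log axes. In all panels the 3 C16 libraries lie below the RE and DMSO libraries, and C16 replicate 3 is lowest.

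Under RE no HOXC member passed the test in AE9a cells (edgeR 0 of 3, with 1 at an unadjusted p under 0.05 and 0 with DESeq2). Hoxc4 differed from DMSO by 0.22 ± 0.31 (95% interval −0.38 to 0.83, adjusted p = 0.628) and Hoxc5 by −0.12 ± 0.56 (−1.21 to 0.97, adjusted p = 0.898). For Hoxc6 every RE library lay above every DMSO library, with a difference of 0.95 ± 0.38 (0.21 to 1.69) that missed the threshold (adjusted p = 0.0885). Between the compounds, all 3 were lower under C16 than under RE, Hoxc4 by log2 −4.53 ± 0.45 (adjusted p = 1.24e-05), Hoxc6 by −3.04 ± 0.51 (adjusted p = 0.000436) and Hoxc5 by −2.96 ± 0.87 (adjusted p = 0.0118). These calls also held with any 1 library left out, and the changes moved most without AE9a C16 replicate 1 for Hoxc4 (−5.26) and without AE9a C16 replicate 2 for Hoxc6 (−4.15) and Hoxc5 (−3.70). Doses are not given, so the compounds are compared only as used here.

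In WT cells the HOXC members had too few fragments to test. Whether the C16 response of Hoxc4 differs between genotypes could not be settled at this depth, since the WT groups held 0 or 1 fragment. The fitted difference had an adjusted p of 0.177 with edgeR and 0.0282 with DESeq2.

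Hoxb4, which expands blood stem cells when overexpressed in mice, was present in every library. It had 6.63, 7.05 and 4.28 CPM in AE9a C16 libraries, 2.64, 2.35 and 3.001 CPM in AE9a RE libraries and 4.65, 3.92 and 4.32 CPM in AE9a DMSO libraries. The AE9a RE libraries lay below all other 15, and AE9a C16 replicate 3 lay within the DMSO range while replicates 1 and 2 lay above it.

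RE lowered Hoxb4 in AE9a cells by log2 −0.73 ± 0.21 (adjusted p = 0.0288), and Hoxb4 was the 1 member called lower, with 0 higher. Of all tested genes 16.8% were lower and 12.2% higher, 29% in all. Libraries did not overlap for 2 lower members, Hoxb4 and Hoxb3, and 1 higher member, Hoxc6, against 21.5% of all tested genes as lower and 27.6% as higher, 49.1% in all. The call was lost without AE9a RE replicate 1 (adjusted p = 0.0685) or 2 (0.108), without AE9a DMSO replicate 1 (0.094) or 3 (0.0704), and in the fit over all 18 libraries (0.131). Several marker lists moved with this result. Of 6 monocyte markers 6 were lower and 0 higher, with sums of 301.8 to 356.4 CPM under RE and 495.4 to 627.5 CPM under DMSO. Erythroid markers had 4 of 8 lower and 0 higher, with sums of 369.4 to 472.1 CPM under RE and 531.1 to 696.5 CPM under DMSO. Neutrophil markers had 4 of 8 lower and 1 higher, with sums of 3401 to 4304 CPM under RE and 4311 to 4700 CPM under DMSO. Megakaryocyte markers had 1 of 8 higher and 0 lower, with sums of 435.0 to 555.2 CPM under RE and 258.5 to 376.9 CPM under DMSO. For mast cell and basophil markers no single gene of 8 was called (edgeR, with 2 at an unadjusted p under 0.05), and the sums were 9695 to 10756 CPM under RE and 5736 to 7227 CPM under DMSO. Progenitor markers had 3 of 6 lower, Myb, Sox4 and Flt3, and 1, Kit, higher. Their sums also did not overlap, at 2549 to 2971 CPM under RE and 1900 to 2430 CPM under DMSO. These sums were mostly Kit (means of 1526 CPM under RE and 1008 CPM under DMSO) and Gata2 (904 and 666 CPM, not called). They thus do not show the fall of Sox4 (12.4 and 23.5 CPM), Flt3 (5.21 and 13.6 CPM) and Myb (288.4 and 321.5 CPM). The part of these lists in the Hoxb4 result was not tested. Under C16 Hoxb4 stood 0.44 ± 0.19 above DMSO (adjusted p = 0.0707), and 0.62 above without AE9a C16 replicate 3 (adjusted p = 0.0032). Between compounds Hoxb4 was higher under C16 than under RE by 1.16 ± 0.20 (adjusted p = 0.000568), with no overlap of libraries. In that comparison 1 of 5 tested members was higher and 3 were lower, and the libraries of these 4 did not overlap. The 3 lower ones were the HOXC members, which passed the filter through the RE and DMSO groups. Their count is thus no support for the direction. Of all tested genes 37.5% were higher and 37.2% lower, 74.6% in all, and 39.4% and 38.4% had no overlap, 77.8% in all.

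Hoxb3, a neighbour of Hoxb4 that is active in early progenitors, had 2.02, 1.35 and 0.528 CPM in AE9a C16 libraries, 0.619, 0.444 and 0.600 CPM in AE9a RE libraries and 1.53, 1.56 and 0.646 CPM in AE9a DMSO libraries. The RE libraries lay below every DMSO library, though DMSO replicate 3 was only just above them, and C16 replicate 3 lay among them. The change with RE was −1.23 ± 0.51 (adjusted p = 0.102), or −1.21 with replicate numbers as a block (adjusted p = 0.0435). Against RE, C16 stood higher by 1.23 ± 0.51 (adjusted p = 0.0534), by 1.19 with the block (adjusted p = 0.021) and by 1.58 without AE9a C16 replicate 3 (adjusted p = 0.00545). Pairing of the AE9a C16 libraries by number, which the block assumes, is not shown. Against DMSO the C16 difference was −0.00 ± 0.43 (95% interval −0.85 to 0.85).

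**Figure D4:**
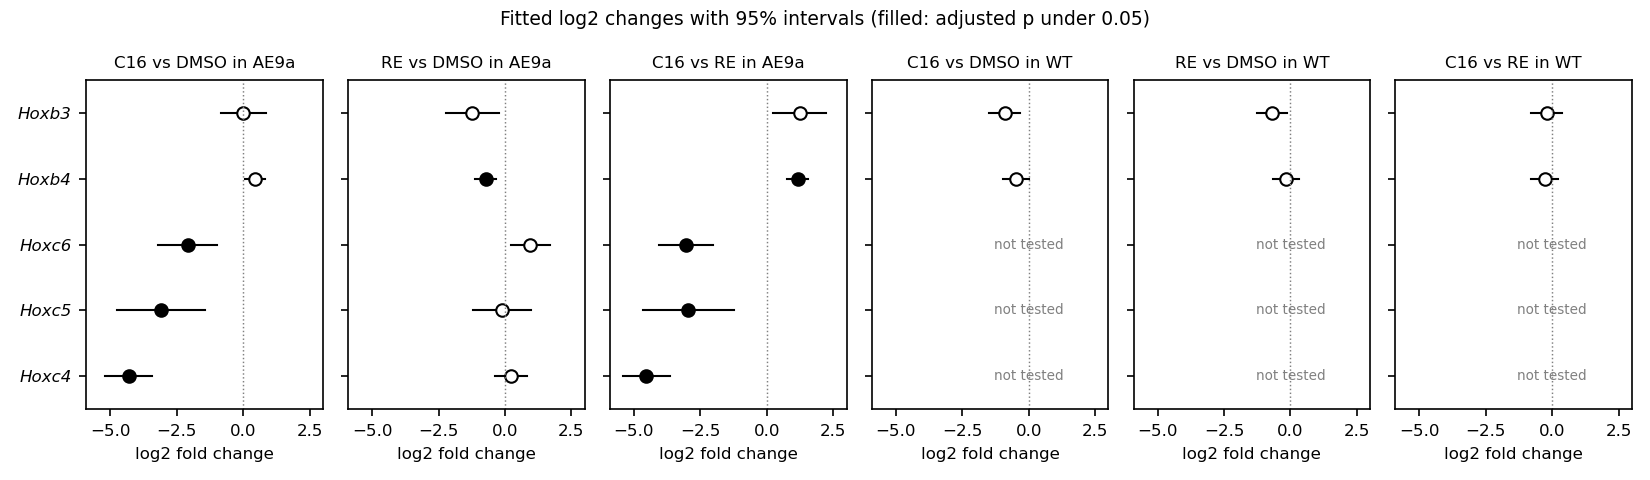
Fitted log2 changes of the 5 members tested in AE9a cells and the 2 tested in WT cells, with 95% intervals (normal quantiles) and filled points where the adjusted p is under 0.05. Under C16 the HOXC members lie far left of 0, from −2.09 to −4.31, and under RE Hoxb4 and Hoxb3 lie left of 0.

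In WT cells Hoxb4 had 4.43, 5.32 and 4.36 CPM under C16, 4.600, 7.55 and 5.26 CPM under RE and 5.77, 8.31 and 5.59 CPM under DMSO. Hoxb3 had 1.46, 1.05 and 1.47 CPM under C16, 1.33, 1.73 and 1.56 CPM under RE and 2.05, 3.47 and 1.97 CPM under DMSO. Replicate 2, which stood apart in this genotype, was the highest Hoxb4 library under each treatment and the highest Hoxb3 library under RE and DMSO. Every C16 library was below every DMSO library for both genes, and every RE library was for Hoxb3. The C16 differences were −0.47 ± 0.25 for Hoxb4 (adjusted p = 0.309) and −0.90 ± 0.30 for Hoxb3 (adjusted p = 0.129), and the RE differences −0.18 ± 0.25 and −0.70 ± 0.29 (adjusted p = 0.999 each). Of the 2 members tested, edgeR called 0 under C16, under RE and between the compounds, as did DESeq2, with 1, 1 and 0 at an unadjusted p under 0.05. Of all 15046 tested genes, 0.957% were called higher and 2.15% lower under C16 (3.1% in all), 0% and 0.0266% under RE (0.0266% in all), and 5.4% and 6.49% between C16 and RE (11.9% in all). These fits left the replicate numbers out, although same-number WT libraries deviated together (correlations 0.565 to 0.859). With a replicate block the common coefficient of variation in WT cells was 0.137 instead of 0.329. Few calls in WT cells therefore do not show that little changed. The 2 members with no overlap under C16 compare with 14.3% of genes as higher and 15.2% as lower (29.6% in all), the 1 under RE with 6.77% and 6.33% (13.1% in all), and the 0 between compounds with 17% and 18.1% (35.1% in all).

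Between genotypes Hoxb4 and Hoxb3 were lower in AE9a cells under RE, by log2 −1.12 ± 0.23 (adjusted p = 0.00196) and −1.47 ± 0.45 (adjusted p = 0.0194), with no overlap of libraries. The Hoxb3 call was lost without AE9a RE replicate 2 (adjusted p = 0.0793). Under DMSO the libraries did not overlap either, and the differences of −0.61 ± 0.23 and −0.99 ± 0.40 missed the threshold (adjusted p = 0.0605 and 0.0849). With the replicate block they were −0.59 and −1.05 (adjusted p = 0.0192 and 0.0181), and DESeq2 called Hoxb4 (adjusted p = 0.0486). In a genotype comparison the block leaves the spread between replicate numbers out of the error, so its p-values do not cover that spread. Under C16 the genotypes overlapped for both genes, with differences of 0.35 ± 0.23 and −0.03 ± 0.41 (adjusted p = 0.234 and 0.961). Leaving out AE9a C16 replicate 3 and WT C16 replicate 2 together, a choice made after seeing the data, gave 0.65 for Hoxb4 (adjusted p = 0.0424).

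The difference between AE9a and WT cells in the C16 response of Hoxb4 was 0.96 ± 0.32, which missed the threshold (adjusted p = 0.0629). It passed with the replicate block (0.94, adjusted p = 0.0125), with DESeq2 (0.92, adjusted p = 0.0366), without the 3 WT libraries numbered 2 (0.86, adjusted p = 0.0168), without AE9a C16 replicate 3 alone (1.15, adjusted p = 0.0334) and without WT C16 replicate 2 alone (1.06, adjusted p = 0.0261). With single libraries left out, 0 to 1 members were called, so some other drops left Hoxb4 uncalled. Pairing of C16 with DMSO in AE9a cells, which the block assumes, is not shown (lowest correlation 0.0624). For Hoxb3 the difference was 0.96 ± 0.58 (adjusted p = 0.262). Differences in the RE response were −0.51 ± 0.32 and −0.48 ± 0.59. Of the 4 members tested, edgeR called 0 for C16, where 4.77% of all genes were called with a higher and 8.29% with a lower change in AE9a cells (13.1% in all), and 0 for RE, where 0% were called, with 1 and 0 at an unadjusted p under 0.05. DESeq2 called 2 and 0.

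The neighbours of the members in both clusters, some of them picked after their values were seen, had levels of their own. Hoxblinc, a noncoding gene that ends 67 bases before Hoxb4 and is known in mouse stem cells to help MLL complexes activate the HOXB genes beside it, had 0.984, 0.696 and 0.370 CPM in AE9a C16 libraries, 0.169, 0.266 and 0.273 CPM in AE9a RE libraries and 0.743, 0.870 and 0.497 CPM in AE9a DMSO libraries. It was lower under RE than DMSO (log2 −1.60 ± 0.43, adjusted p = 0.0233) and higher under C16 than RE (1.49 ± 0.44, adjusted p = 0.0118), with no overlap. In WT cells it had 0.352, 0.301 and 0.263 CPM under C16, 0.776, 1.599 and 0.644 CPM under RE and 1.94, 2.15 and 1.46 CPM under DMSO. There it was lower under C16 than under DMSO (−2.56 ± 0.41, adjusted p = 0.0275) and also lower under C16 than under RE (−1.68 ± 0.41, adjusted p = 0.0398), the opposite direction to that in AE9a cells. RE differed from DMSO in WT cells by −0.88 ± 0.37 (adjusted p = 0.999).

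At the other end of HOXB, Hoxb13, a gene of the tail end of the body axis, was detected in AE9a cells alone. It had 0.104, 0.164 and 0.0528 CPM in AE9a C16 libraries, 4.95, 5.68 and 5.29 CPM in AE9a RE libraries and 2.57, 3.55 and 2.88 CPM in AE9a DMSO libraries, and 0 fragments in all 9 WT libraries. With DMSO alone AE9a cells had at least 57.2-fold more of it than WT cells. C16 lowered it by log2 −4.74 ± 0.29 (adjusted p = 2.32e-06) and RE raised it by 0.77 ± 0.17 (adjusted p = 0.00998). The 2 uncharacterised genes beside Hoxb13, Gm30134 and Gm11538, averaged 0.659 and 0.525 CPM under C16, 9.34 and 16.8 CPM under RE and 7.06 and 12.5 CPM under DMSO in AE9a cells, and at most 0.101 CPM in any WT group. The spans of these 2 genes overlap on opposite strands. In AE9a cells C16 lowered Gm30134 by log2 −3.42 ± 0.48 (adjusted p = 0.000185) and Gm11538 by −4.53 ± 0.43 (adjusted p = 1.6e-05). Between this end and the members, Hoxb9 had 5 fragments in all 18 libraries, and Hoxb1 at the other end had 1.

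On HOXC, Hoxc9 averaged 0.120 ± 0.107 CPM under C16, 2.37 ± 0.71 CPM under RE and 1.84 ± 0.26 CPM under DMSO in AE9a cells, with 1 fragment in the 9 WT libraries. C16 lowered it by log2 −3.85 ± 0.50 (adjusted p = 0.000115), and RE differed from DMSO by 0.32 ± 0.32 (adjusted p = 0.487). Hoxc8 had 35 fragments in AE9a and 1 in WT libraries. Further along, Hoxc10 had 3 fragments in all and Hoxc11, Hoxc12 and Hoxc13 had 0. The antisense gene Gm30528, whose span overlaps that of Hoxc4, averaged 0.0446 CPM under C16, 1.41 CPM under RE and 1.15 CPM under DMSO in AE9a cells. The annotated exons of Hoxc4 and Gm30528 share no base. The noncoding genes Hoxb3os, Hoxb5os and Hotair had 23, 29 and 2 fragments in all and were not tested.

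**Figure D5:**
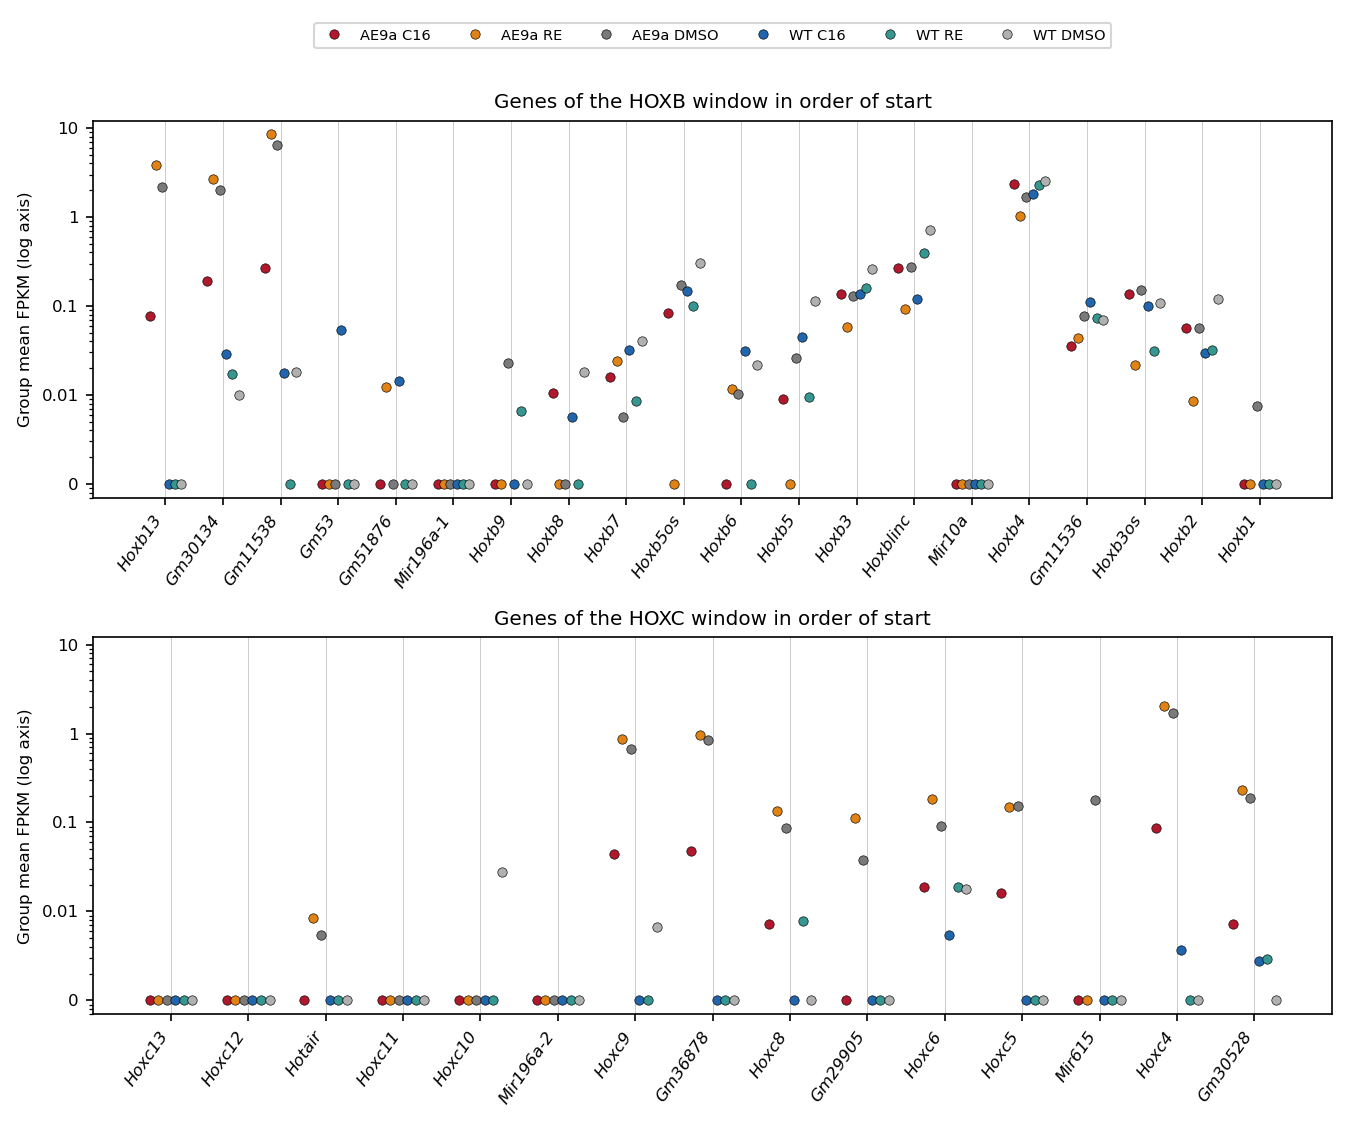
Group mean FPKM of genes in the HOXB and HOXC windows, in order of start, on a log axis whose lowest mark stands for 0. AE9a RE and AE9a DMSO groups stand apart from the other 4 groups at Hoxb13 and its neighbours and from Hoxc9 to Hoxc4, while Hoxb3 and Hoxb4 are present in all 6 groups.

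The counts for flanking and related genes below are to be read against the shares of all tested genes called in AE9a cells, 66.3% under C16 (33.1% higher, 33.2% lower) and 29% under RE (12.2% higher, 16.8% lower). Genes flanking the clusters differed in direction. Of 6 tested HOXB flanks, C16 raised 3 and lowered 1 in AE9a cells, a share near that of all genes, with a median log2 change of 0.13 against 0.00 over all tested genes. Those raised were Atp5mc1 (0.79), a subunit of mitochondrial ATP synthase, Cbx1 (0.51), a heterochromatin protein, and Nfe2l1 (0.28), a transcription factor of stress responses. Skap1, an adaptor of immune cell signalling, was lower (−4.13 ± 0.46, adjusted p = 4.16e-05) and was raised by RE (1.11 ± 0.31, adjusted p = 0.0274). Of 7 tested HOXC flanks, C16 raised 4 and lowered 2, with a median of 0.22. Cbx5, another heterochromatin protein gene, was higher under C16 (0.77 ± 0.06) and lower under RE (−0.53 ± 0.06), as was Hnrnpa1, a splicing regulator (0.72 ± 0.04 and −0.30 ± 0.04). Calcoco1, an autophagy receptor, was lower under C16 (−1.14 ± 0.12) and higher under RE (0.58 ± 0.11).

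Of the related HOX genes, those of the HOXA cluster were also expressed. Of 7 tested HOXA genes, C16 raised 5 and lowered 0 in AE9a cells (median log2 0.79, against 0.00 over all genes, of which 66.3% were called), and RE raised 0 and lowered 5 (median −2.20, against −0.01 over all genes, of which 29% were called). Hoxa9, a driver of progenitor self-renewal, averaged 7.52 CPM under C16, 0.727 CPM under RE and 3.84 CPM under DMSO. HOXD genes reached at most 0.109 CPM summed in any library.

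Among genes that act with HOX proteins, C16 lowered 5 and raised 1 of 9 PBX, MEIS and PKNOX genes in AE9a cells (median −0.92), a share called near the 66.3% of all genes, among them Meis2 (−3.95 ± 0.41, adjusted p = 2.97e-05) and Meis3 (−3.82 ± 0.27, adjusted p = 3.89e-06), whereas Meis1 differed by 0.18 ± 0.10 (adjusted p = 0.142). RE raised 1, Meis3 (0.65 ± 0.20, adjusted p = 0.0409), and lowered 0. Of 13 genes of MLL complexes and their partners C16 raised 8 and lowered 2 (median 0.16), against 66.3% of all genes called, and RE raised 1 and lowered 5 (median −0.12), against 29% of all genes. Mllt3, a partner of MLL fusions, was higher under C16 (1.06 ± 0.11), as was Dpy30, a core subunit of MLL complexes (0.97 ± 0.07), which RE lowered (−0.32 ± 0.07). Of 17 Polycomb genes C16 raised 8 and lowered 5 (median 0.12), against 66.3% of all genes called, and RE raised 2 and lowered 5 (median 0.03), against 29% of all genes. Phc1, a subunit of Polycomb repressive complexes, was lower under C16 (−1.59 ± 0.08) and Cbx2, another subunit, higher (1.09 ± 0.12). CDX genes, known activators of HOX genes, had no fragment in AE9a libraries.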

How the data were processed

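RNA-seq fragments were counted in 18 libraries of cKit-selected mouse bone marrow cells. The deposited values are raw counts of fragments per gene, 1 table per genotype. The submitters' processing notes list HISAT2 2.1.0 and featureCounts 2.0.3, along with fastp 0.23.2, FastQC 0.11.9, DESeq2 and the build GRCm39, while the file headers name featureCounts 1.6.2. Per the file headers, exons were counted by gene and without regard to strand. Library totals ran from 16053727 to 27207748 fragments. No 2 libraries were identical (0 pairs), and 0 count columns were left unmatched to a sample.

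Groups were taken from the labels. Each genotype's 9 libraries were fitted together to compare compounds, and all 18 to compare genotypes and responses. Genes kept by filterByExpr (minimum count 10, leaving 14704 genes for AE9a, 15046 for WT and 15809 for the joint fit) were scaled by TMM and tested with edgeR 4.0.16 quasi-likelihood F tests in R 4.3.3, with Benjamini-Hochberg adjustment over all tested genes and a threshold of 0.05. Changes are fitted log2 folds ± standard error. Their 95% intervals use normal quantiles of that error and are narrower than the F tests imply. An interval can thus exclude 0 where the test does not. Levels are CPM, or FPKM over the exon length given in the tables, with SD over 3 libraries. A group at 0 fragments was set to 3 fragments over the group, and ratios with 1 to 3 fragments have exact 95% intervals; both cover counting error only.

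Alternatives were DESeq2 1.42.0, RLE scaling, no filter, a replicate block, fits on more or fewer groups, and dropping single libraries; dropping both C16 libraries that stood apart was chosen after seeing the data. Same-number libraries deviated together in WT cells (correlations 0.565 to 0.859) and, less so, for RE with DMSO in AE9a cells (0.292 to 0.399). Correlations of the AE9a C16 libraries were low, 0.103 to 0.124 with RE and 0.0624 to 0.299 with DMSO. By a limit of 0.1 C16 would pair with RE but not with DMSO, although RE pairs with DMSO. Pairing of the AE9a C16 libraries by number is therefore not shown. In data simulated with 2-fold and 4-fold changes, 84% and 98% were recovered for C16 in AE9a cells, 23% and 74% for C16 in WT cells and 67% and 87% between genotypes under DMSO. Calls among unchanged genes numbered 11, 10 and 6. The changed genes were drawn from those averaging 1 CPM or more, so these shares do not cover members below that level. Simulated libraries were drawn independently, without the shared deviation of same-number libraries, and 100 genes were changed by each fold. In the real data 66.3% of tested genes were called under C16 in AE9a cells, so recovery there may differ.

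The members and gene lists were chosen with earlier results of these data known. Named were all members, detected neighbours in the clusters and flanks, Runx1t1, Kit, and up to 4 genes of other lists; Hoxblinc, Gm30134, Gm11538 and Gm30528 were added after their values were seen, as were Meis1, Myb and the named neutrophil markers. Promoter sequences are from RefSeq on GRCm38.p6 and were matched for 3 of 10 members.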

Additional observations from a re-analysis of the deposited data

Results flagged for a closer look

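Hoxblinc, the noncoding gene beside Hoxb4, responded differently to C16 in AE9a and WT cells. Its log2 change under C16 was −0.11 ± 0.35 in AE9a cells, which missed the threshold (adjusted p = 0.802), and −2.56 ± 0.41 in WT cells (adjusted p = 0.0275). The difference itself was 2.52 ± 0.56 (edgeR interaction test, adjusted p = 0.0105, n = 3 libraries per group). It stood at 0.683 ± 0.307 CPM in AE9a C16 libraries against 0.703 ± 0.190 CPM in AE9a DMSO libraries, and at 0.305 ± 0.045 CPM in WT C16 libraries against 1.85 ± 0.35 CPM in WT DMSO libraries. The genotypes already differed under DMSO, where Hoxblinc was lower in AE9a cells (log2 −1.38 ± 0.37, edgeR adjusted p = 0.0126). It was also lower there under RE (−2.04 ± 0.43, adjusted p = 0.00223), but higher under C16 (1.15 ± 0.42, adjusted p = 0.0485). The WT C16 level rests on 18 fragments, and the gene lies inside the span of Hoxb3 on the same strand. The gene was singled out after its values were seen.

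Skap1, which flanks the HOXB cluster, also differed between genotypes in its C16 response, by −2.95 ± 0.79 (edgeR interaction test, adjusted p = 0.0262). It stood at 0.570 ± 0.500 CPM in AE9a C16 libraries against 9.95 ± 2.34 CPM in AE9a DMSO libraries, and at 2.44 ± 1.11 CPM in WT C16 libraries against 5.38 ± 1.56 CPM in WT DMSO libraries. In WT cells alone the C16 change of −1.13 ± 0.41 missed the threshold (adjusted p = 0.154).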

How the results depend on the processing

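Results for single members and their counts were recomputed under RLE scaling, no filter, DESeq2, a replicate block, fits on more or fewer groups, and with single libraries dropped; 0 reversed direction among called values. Of the values for single members under other settings, 490 kept their side of the threshold, 16 dropped below it and 18 moved above it. Counts of members called that moved by more than 1.5 times are given first. For RE against DMSO in AE9a cells the count of 1 became 2 with the replicate block and 0 in the fit over all 18 libraries, and ranged from 0 to 1 with a library left out. For AE9a against WT under DMSO the count of 2 became 4 with the block (2 higher and 2 lower), 1 with only the libraries compared, and 1 to 3 with a library left out. Under C16 the count of 1 became 0 with only the libraries compared, where Hoxc4 was not among the tested genes, 2 without the 3 WT libraries numbered 2, 2 without both C16 libraries that stand apart, and 0 to 1 with a library left out. For the difference in C16 response the count of 0 became 2 with DESeq2, 1 with the block, 1 without the WT libraries numbered 2, 1 without both C16 libraries that stand apart, and 0 to 1 with a library left out. Smaller moves were C16 against DMSO in AE9a cells from 3 to 2 in the fit over all 18 libraries and to 4 without AE9a C16 replicate 3, C16 against RE in AE9a cells from 4 to 5 without the filter, with the block and without AE9a C16 replicate 3, AE9a against WT under RE from 4 to 3 with only the libraries compared and to 5 without the filter, without the WT libraries numbered 2 and with some single libraries left out, and AE9a against WT under DMSO from 2 to 3 without the WT libraries numbered 2. The cause of these moves was not tested. In genotype comparisons the block leaves the spread between replicate numbers out of the error. Apart from the results named here and above, the block changed no call. Members under about 1 CPM rest on few fragments, and their intervals are wide.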

Other observations

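Genes whose pattern over the 6 group means was most like that of the summed HOXB members were Ankrd7, Eml5, Tnfaip6, Hk3 and B430212C06Rik, with root mean square log2 differences of 0.0359 to 0.0978 among 14431 genes compared. Hk3, a hexokinase gene of myeloid cells, averaged 288.3 CPM in the AE9a C16 group, 148.7 CPM under RE and 208.9 CPM under DMSO, and 246.1, 303.4 and 355.6 CPM in the WT C16, RE and DMSO groups. The genes most like the summed HOXC members were Far2os1, Slc25a21, Pcnx2, Gm57485 and Mpped2, with differences of 0.134 to 0.269. Slc25a21, a mitochondrial carrier gene, averaged 0.313 CPM in the AE9a C16 group, 5.64 CPM under RE and 6.96 CPM under DMSO, and had 0 CPM in all 3 WT groups. These values are descriptions over 6 group means.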
